A study of Mus musculus with 14 samples.

Results

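The collagen genes are the 44 of 21878 genes in the deposited tables whose symbol reads Col, a number, the letter a and a number. By class they were 11 fibrillar collagens, 8 basement membrane collagens, 9 FACIT collagens (which sit on the surface of fibrils) and 16 others. They were followed in 14 RNA-seq libraries of hepatocytes, the parenchymal cells of the liver, from C57BL/6 mice. The labels put the libraries in 7 groups of 2. Freshly isolated hepatocytes were sampled without a Yap label (FH) and as Yap-/- cells (FH Yap-/-). Hepatocytes labelled BM were taken on day 1 (BM 1D), on day 3 (BM 3D) and after 3 weeks (BM 3W), the last also as Yap-/- cells (BM 3W Yap-/-). Hepatocytes labelled LBDXL were sampled at 3 weeks only (LBDXL 3W). By the study's title, the subject was the upkeep of hepatocyte functions in vitro when the activation of YAP by mechanical tension is inhibited. What BM and LBDXL stand for, the age of the animals, and the allele or driver behind Yap-/- are not stated in the labels, nor is it stated that libraries 1 and 2 of a group are from different mice or dishes. The p-values below therefore measure the spread between these libraries, which may be technical.

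Collagens are secreted proteins whose chains wind in threes into a triple helix. Their chains are hydroxylated and folded in the endoplasmic reticulum, cut by proteases outside the cell and joined by lysyl oxidases. In a healthy liver, fibrillar collagens I and III are made mainly by stellate cells and portal fibroblasts, type IV collagen lines vessels and ducts, and hepatocytes are a known source of type XVIII. YAP is a transcriptional co-activator that acts with TEAD factors and responds to the stiffness of the matrix.

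Libraries held 15501005 to 21220365 counts. Levels are TMM-scaled CPM (counts relative to the scaled library size), and values joined by "and" are libraries 1 and 2 of a group. "Rose" and "fell" are kept for an adjusted p under 0.05 (quasi-likelihood F-test of edgeR, 14100 genes), and log2 fold changes are given ± standard error. Of the 44 collagens, 35 passed the filter on low counts and were tested. Yap1, the gene named in the labels, had 6.66 and 7.75 CPM in BM 3W Yap-/- against 80.2 and 95.5 CPM in BM 3W, and 23.1 and 26.5 CPM in FH Yap-/- against 87.6 and 97.6 CPM in FH. In LBDXL 3W it had 97.7 and 96.3 CPM. Some libraries stood apart from their pair. Summed endothelial markers were 204 CPM in LBDXL 3W 1 and 9.79 CPM in LBDXL 3W 2, and summed hepatocyte markers were 32460 CPM in BM 3W 1 and 3372 CPM in BM 3W 2. Counts of collagens called are therefore also given without LBDXL 3W 1 and BM 3W 2.

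Collagen messages were a small share of all counts in every group except BM 3W. They made up 0.103% of the counts in each FH library, 0.0608 and 0.130% in BM 1D, 0.123 and 0.195% in BM 3D and 2.34 and 3.45% in BM 3W. At 3 weeks the share was 0.144 and 0.149% in LBDXL 3W and 0.186 and 0.178% in BM 3W Yap-/-, against the 2.34 and 3.45% in BM 3W. FH Yap-/- libraries held 0.109 and 0.107%. The BM 3W libraries thus lay above all 12 others, and no other group reached 0.2%. In bulk RNA, more cells of a collagen-producing type and more collagen RNA per cell cannot be told apart.

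The make-up changed along with the total. On FPKM, which corrects for gene length, basement membrane collagens held 93.6 and 94.6% of the collagen signal in FH, and Col18a1 alone held 88.6 and 89.9%. In BM 3W the basement membrane share was 16.3 and 11.1%, and fibrillar collagens held 70.3 and 81.2%, against 4.46 and 3.83% in FH. Types I and III (Col1a1, Col1a2 and Col3a1) made up 62.7 and 73.3% of the collagen FPKM in BM 3W. The other cultured groups lay closer to FH. The fibrillar share was 8.07 and 4.21% in LBDXL 3W and 13.7 and 14.6% in BM 3W Yap-/-. Col18a1 held 66.9 and 86.5% in LBDXL 3W and 44.4 and 49.4% in BM 3W Yap-/-.

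**Figure D1:**
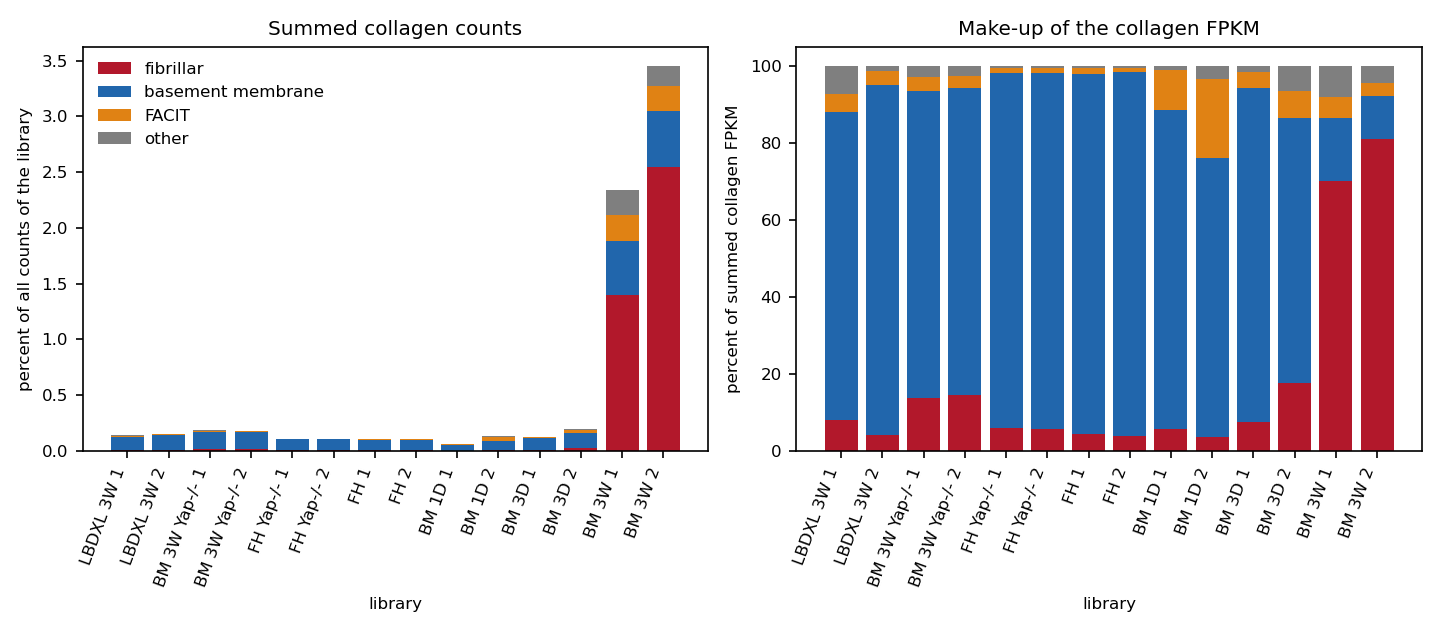
Stacked bars show, for each of the 14 libraries, the collagen classes as a percent of all library counts and as a percent of the summed collagen FPKM. Only the BM 3W libraries exceed 2% of counts (2.34 and 3.45%), and only there do fibrillar collagens hold most of the collagen FPKM.

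Among the 22 collagens that averaged 10 CPM or more in some group, 18 had their highest group mean in BM 3W. Col18a1, Col4a3 and Col5a3 were highest in FH, and Col27a1 in FH Yap-/-. The remaining 22 collagens stayed low in all groups. The map of levels shows this block of BM 3W values across classes.

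**Figure D2:**
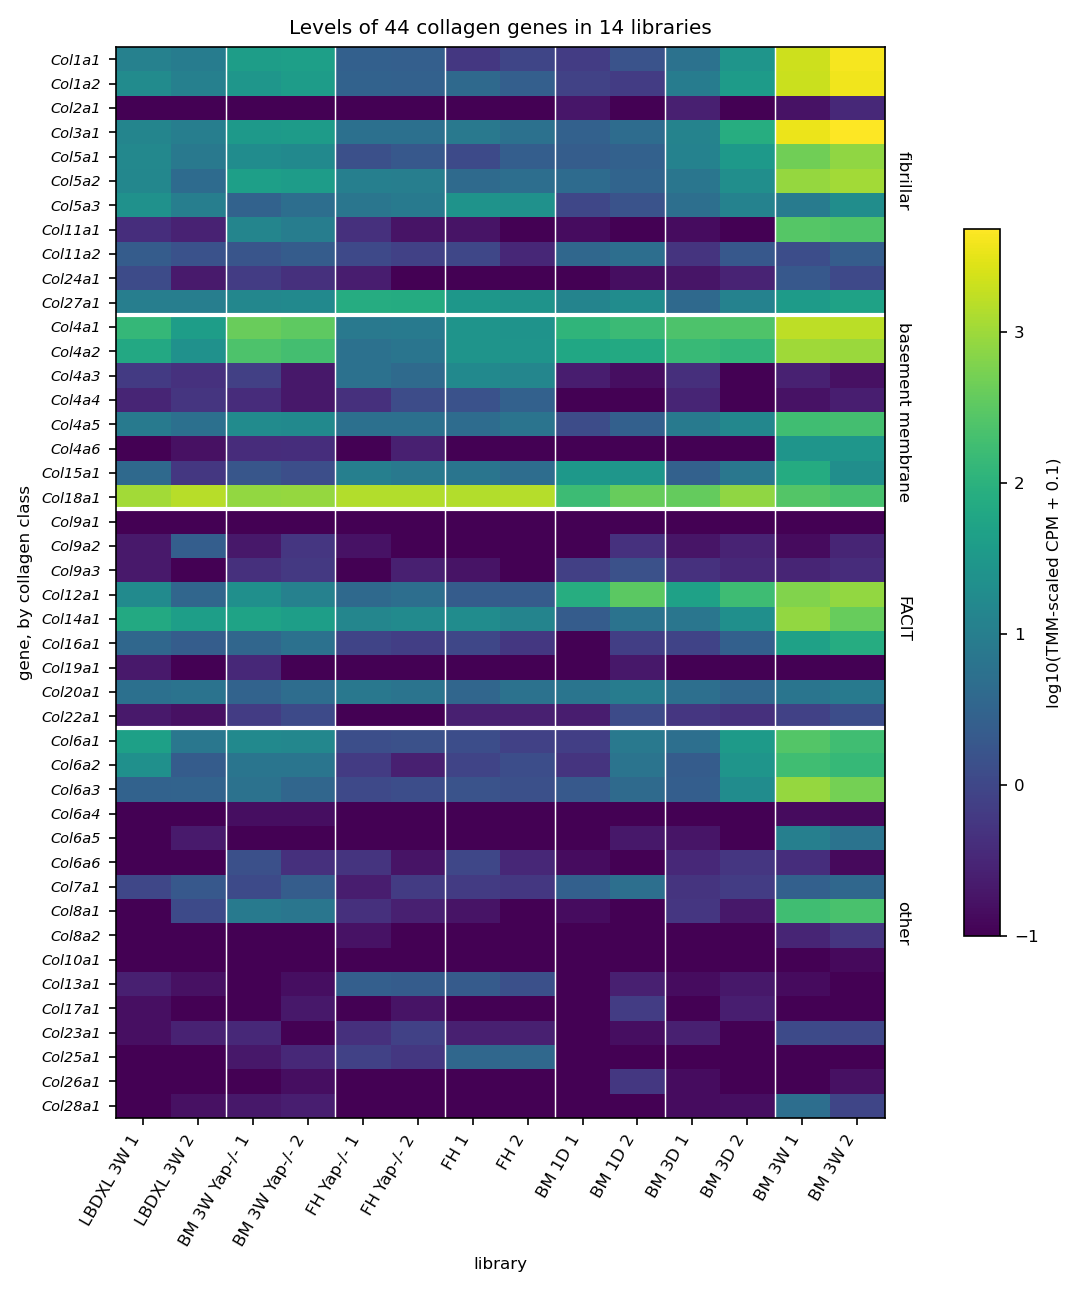
Each cell gives log10(CPM + 0.1) of 1 collagen gene (rows, by class) in 1 library (columns, by group). The genes of types I, III and V (Col5a1, Col5a2), Col11a1, the 3 main type VI chains and Col8a1 are highest in the 2 BM 3W columns, while Col18a1 is high in all columns, with its lowest group means in BM 1D and BM 3W.

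Counts of collagens past the threshold were set beside the share of all 14100 tested genes that passed in the same direction. A gene that passed the filter only through the group in which it was high had to differ, so these counts describe the family and are no separate evidence. In BM 1D against FH, 7 collagens rose and 9 fell of 35 tested, where 23.6% of all genes rose and 20.2% fell (43.8% in either direction). In BM 3D against FH, 11 rose and 6 fell (all genes 22.5% and 17.9%, together 40.5%). The shares of collagens at these 2 times were near those of all genes. In BM 3W against FH, 22 rose and 5 fell (all genes 33% and 26.1%, together 59.1%), and the median log2 fold change of the tested collagens was 5.31, or 5.10 with genes at 0 counts placed at their bound, against 0.17 over all genes. The step from BM 3D to BM 3W held most of it. In BM 3W against BM 3D, 21 rose and 0 fell in edgeR (all genes 13.5% and 10.9%, together 24.4%, median 3.32 against -0.10), while in BM 3D against BM 1D 6 rose and 1 fell (all genes 3.67% and 1.6%, together 5.26%). The falls at an unadjusted p under 0.05 in BM 3W against BM 3D numbered 1, Col18a1, as did the falls called by DESeq2, and limma called 0. Single libraries moved some totals by over 1.5 times. The share of all genes called in those fits was not set beside them, so they do not show a change particular to collagens. The 16 calls in BM 1D against FH became 9 without FH 1 and 10 without FH 2, and the 17 in BM 3D against FH became 11 and 10. The 7 calls in BM 3D against BM 1D became 2 without BM 1D 1 and 11 without either LBDXL 3W library.

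At 3 weeks the 2 comparisons with BM 3W ran the other way, and both use the same BM 3W libraries. In LBDXL 3W against BM 3W, 1 collagen rose and 22 fell (all genes 21.1% and 23.7%, together 44.8%), with a median log2 fold change of -4.23 (-3.67 with genes at 0 placed at their bound) against -0.02 over all genes. In BM 3W Yap-/- against BM 3W, 2 rose and 22 fell (all genes 15% and 16.6%, together 31.6%), with a median of -3.41 against -0.03. LBDXL 3W and FH differed less, with 6 risen and 4 fallen (all genes 11.7% and 9.6%, together 21.3%), and in LBDXL 3W against BM 3W Yap-/- 1 rose and 5 fell (all genes 2.61% and 4.33%, together 6.94%). In FH Yap-/- against FH, 0 rose and 1 fell in edgeR (all genes 0.489% and 0.454%, together 0.943%). At an unadjusted p under 0.05 there were 2 rises, DESeq2 called 1, and limma called 0 or 1. The difference of the Yap-/- effect in culture from that in fresh cells, an interaction term, was negative for 15 collagens and positive for 1 (all genes 8.84% and 8.04%, together 16.9%). Here too single libraries weighed on the smaller totals, again without the share of all genes called in those fits beside them. The 10 calls in LBDXL 3W against FH became 6 without LBDXL 3W 1, 2 without FH 1 and 4 without FH 2, and the 6 in LBDXL 3W against BM 3W Yap-/- became 2 without either BM 3W Yap-/- library. The 1 call in FH Yap-/- against FH was lost in edgeR without either library of FH Yap-/-, FH, BM 3W Yap-/- or BM 3W, with 4 to 7 members at an unadjusted p under 0.05, and became 2 without either library of LBDXL 3W or BM 3D.

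With LBDXL 3W 1 and BM 3W 2 left out together, 22 rose and 4 fell in BM 3W against FH, 1 rose and 21 fell in LBDXL 3W against BM 3W, and 20 fell in BM 3W Yap-/- against BM 3W, where 2 rises were left at an unadjusted p under 0.05 and 0 past the threshold in edgeR. In LBDXL 3W against FH 3 rose and 3 fell without them, and in BM 3D against BM 1D 9 rose and 2 fell. The share of all genes called without these libraries was not set beside these counts, so they do not show a change particular to collagens. Without TMM scaling, on total counts, the median of all genes moved by -0.82 to 1.29 on the log2 scale over the comparisons. The split of collagens then was 11 risen and 6 fallen in BM 1D against FH (all genes 7064 and 1351 of 14100). It was 11 and 3 in LBDXL 3W against FH (all genes 3593 and 822). In both of these comparisons more of all genes rose than with TMM scaling as well. In LBDXL 3W against BM 3W Yap-/- the split was 0 and 6 in edgeR (all genes 211 and 736), with 1 rise at an unadjusted p under 0.05 there. None of the calls of the 35 tested members was reversed in direction by DESeq2 size factors or total counts.

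Col1a1 and Col1a2 encode the chains of type I collagen, the main fibre of scar tissue, and Col3a1 that of type III, which lies beside it in the fine fibres of the liver. Col1a1 (chr11:94936224-94953042, GRCm38.p6) had 0.477 and 0.871 CPM in FH, 0.587 and 1.51 in BM 1D, 5.67 and 27.3 in BM 3D and 2092 and 4165 in BM 3W. At 3 weeks it had 11.3 and 9.06 CPM in LBDXL 3W and 40.9 and 43.1 CPM in BM 3W Yap-/-, against the BM 3W values above. The lower BM 3W library was thus far above the higher library of either other group, and BM 3D 2 stood above BM 3D 1. Col1a1 rose in BM 3W against FH (12.17 ± 1.00, adjusted p = 8.5e-06), fell in LBDXL 3W against BM 3W (-8.27 ± 0.84, adjusted p = 5.93e-05) and fell in BM 3W Yap-/- against BM 3W (-6.22 ± 0.76, adjusted p = 0.000449). Col1a2 (chr6:4505618-4541543) had 3.82 and 2.53 CPM in FH, 0.722 and 0.573 in BM 1D, 9.03 and 37.6 in BM 3D and 2055 and 3890.3 in BM 3W. It had 18.2 and 11.1 CPM in LBDXL 3W and 29.01 and 38.3 CPM in BM 3W Yap-/-. Col1a2 fell in BM 1D against FH (-2.28 ± 0.68, adjusted p = 0.0192), a call lost on total counts and in all 3 limma fits. It was also lost without FH 1 (log2 fold change -1.95), BM 1D 1 (-2.46) or BM 1D 2 (-2.12). Col3a1 (chr1:45311538-45349706) had 7.63 and 5.46 CPM in FH, 2.71 and 4.37 in BM 1D, 12.1 and 81.2 in BM 3D and 3581 and 4815 in BM 3W, against which it had 13.5 and 9.79 CPM in LBDXL 3W and 32.8 and 36.3 CPM in BM 3W Yap-/-. All 3 genes followed the same order at 3 weeks, with LBDXL 3W lowest and BM 3W highest.

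The promoter windows of Col1a2 and Col3a1 are shown because these genes rose together while their start regions differ in base composition. Windows run from 250 bases before to 50 after the start site, from RefSeq on GRCm38.p6, 5′ to 3′ on the gene's strand. Capitals mark matches to 5 motifs, each searched on both strands without regard to the others. The core of the TATA box was searched as TATAAA. The CCAAT box was searched by the letters of its name. For the GC box the search used GGGCGG. For the core that TEAD factors bind it used GGAATG. For the AP-1 element it used TGANTCA. Col1a2 lies at chr6:4505368-4505667, plus strand, and Col3a1 at chr1:45311288-45311587, plus strand.
Col1a2: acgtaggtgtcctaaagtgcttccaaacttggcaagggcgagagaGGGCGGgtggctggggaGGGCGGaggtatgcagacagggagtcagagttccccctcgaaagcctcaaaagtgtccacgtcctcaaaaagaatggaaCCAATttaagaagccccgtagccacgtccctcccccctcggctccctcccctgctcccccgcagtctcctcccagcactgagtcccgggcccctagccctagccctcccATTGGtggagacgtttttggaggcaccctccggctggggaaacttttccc
Col3a1: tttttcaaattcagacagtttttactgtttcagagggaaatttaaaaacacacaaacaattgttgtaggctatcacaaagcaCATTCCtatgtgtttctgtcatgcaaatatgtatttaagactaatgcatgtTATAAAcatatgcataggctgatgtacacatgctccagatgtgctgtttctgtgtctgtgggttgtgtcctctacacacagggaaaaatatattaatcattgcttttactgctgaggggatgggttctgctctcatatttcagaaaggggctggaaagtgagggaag
The Col1a2 window was 61% G and C and held matches to the GC box and CCAAT. The Col3a1 window was 37.7% G and C and held 1 TATAAA and 1 GGAATG. The table held windows for 35 collagens, 38 in all, and Col1a1 had none. GGGCGG was in 60.5% of these 38 windows and in 35.6% of all 32817 windows of the same length. The shares for the others were 34.2% against 37.4% for CCAAT, 13.2% against 13.6% for TATAAA, 13.2% against 14.7% for GGAATG and 2.63% against 7.81% for TGANTCA. A match is a description of letters and not a site.

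The order of types I and III at 3 weeks was also seen in their tests. Col1a2 rose in BM 3W against FH (9.87 ± 0.81, adjusted p = 8.5e-06) and fell in LBDXL 3W (-7.66 ± 0.74, adjusted p = 4.66e-05) and BM 3W Yap-/- (-6.47 ± 0.70, adjusted p = 0.000253) against BM 3W. Col3a1 rose in BM 3W against FH (9.32 ± 0.91, adjusted p = 1.89e-05) and fell in LBDXL 3W (-8.49 ± 0.88, adjusted p = 6.49e-05) and BM 3W Yap-/- (-6.92 ± 0.82, adjusted p = 0.000367) against BM 3W. Against FH, the LBDXL 3W cells held more type I message: Col1a1 rose (3.90 ± 0.78, adjusted p = 0.00563), as did Col1a2 (2.20 ± 0.61, adjusted p = 0.0254), while Col3a1 did not pass (0.83 ± 0.66, adjusted p = 0.405). These 2 rises were lost in limma on log2(FPKM + 1), filtered or not, and were sensitive to single libraries. Col1a1 lost its call without FH 1 (adjusted p = 0.0638), and Col1a2 without LBDXL 3W 1 (0.115), FH 1 (0.0967) or FH 2 (0.18). In BM 3D against FH all 3 genes rose, by 4.60 ± 0.79, 2.87 ± 0.62 and 2.83 ± 0.69 on the log2 scale, and Col3a1 lost its call without FH 2 (2.61, adjusted p = 0.0721) or BM 3D 2 (0.89, adjusted p = 0.113). From BM 1D to BM 3D the log2 fold changes were 3.98 ± 0.73, 5.15 ± 0.70 and 3.72 ± 0.72, all called. All 3 calls were lost when these groups were fitted alone. Those of Col1a1 and Col3a1 were also lost in limma on log2(FPKM + 1) without a filter. Without BM 1D 1, Col1a1 (adjusted p = 0.105) and Col3a1 (0.12) no longer passed, and Col3a1 did not pass without BM 1D 2 either (0.052).

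**Figure D3:**
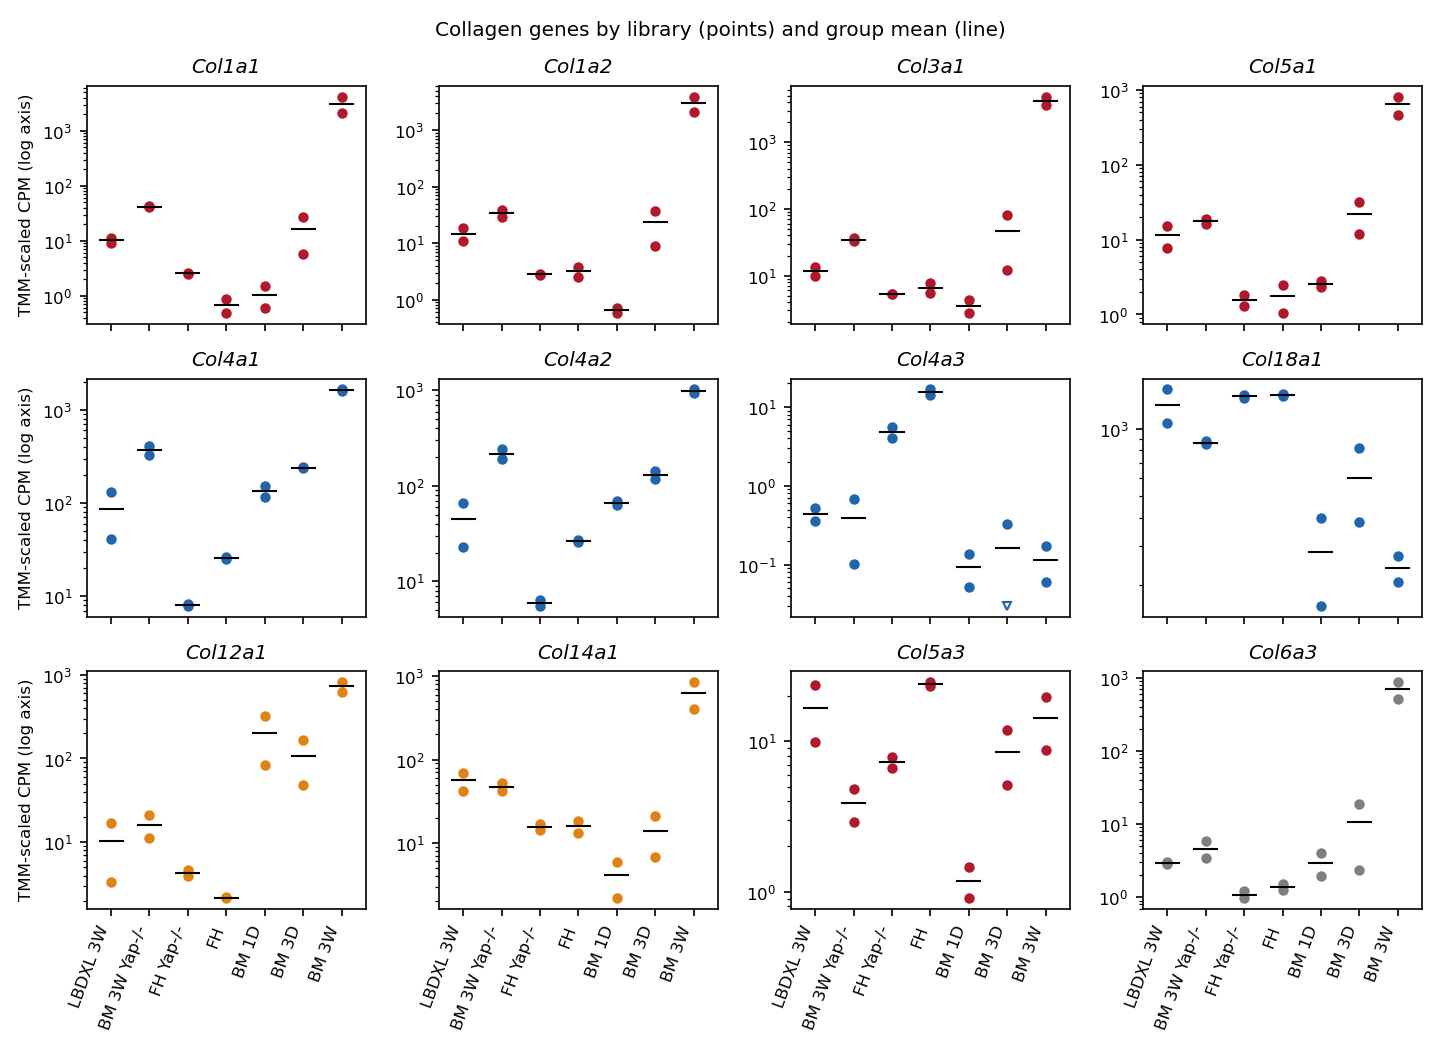
TMM-scaled CPM on a log axis of 12 collagen genes in each library, by group, with 1 point per library and open triangles for libraries at 0 counts. Col1a1 reaches 2092 and 4165 CPM in BM 3W, against 11.3 and 9.06 CPM in LBDXL 3W and 40.9 and 43.1 CPM in BM 3W Yap-/-.

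Type V and XI chains join types I and III inside fibrils and set their width. Col5a1 had 1.03 and 2.45 CPM in FH, 2.35 and 2.76 in BM 1D, 11.7 and 32.02 in BM 3D and 469 and 809 in BM 3W. At 3 weeks it had 15.2 and 7.73 CPM in LBDXL 3W and 18.7 and 16.4 CPM in BM 3W Yap-/-. Its rise was visible by day 3, as Col5a1 rose in BM 3D against FH (3.64 ± 0.58, adjusted p = 0.000749), in BM 3D against BM 1D (3.10 ± 0.54, adjusted p = 0.0119) and in BM 3W against FH (8.51 ± 0.68, adjusted p = 8.11e-06). The step from BM 1D was lost without BM 1D 1 (log2 fold change 2.99). It was also lost on the compared groups alone and in limma on log2(FPKM + 1) without a filter. Col5a1 rose in LBDXL 3W against FH (2.72 ± 0.57, adjusted p = 0.00743), a call lost without FH 1 (2.23). That call was also lost on the compared groups alone and in limma on log2(FPKM + 1), filtered or not. Col5a2, which lies next to Col3a1 on chromosome 1 (chr1:45374331-45503282), had 3.98 and 4.83 CPM in FH, 4.24 and 3.12 in BM 1D, 6.85 and 20.6 in BM 3D and 868 and 1060.0 in BM 3W. It had 14.6 and 4.17 CPM in LBDXL 3W and 44.3 and 39.3 CPM in BM 3W Yap-/-. Both type V genes fell against BM 3W, with log2 fold changes for Col5a1 of -5.80 ± 0.59 in LBDXL 3W and -5.19 ± 0.57 in BM 3W Yap-/-, and for Col5a2 of -6.67 ± 0.68 and -4.53 ± 0.61, with adjusted p of 6.1e-05, 0.000294, 5.94e-05 and 0.000695.

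Col5a3, another chain of the type V group, went its own way. It had 24.9 and 23.3 CPM in FH, 0.903 and 1.46 in BM 1D, 5.104 and 11.8 in BM 3D and 8.81 and 19.7 in BM 3W, so it dropped on the first day and came back in part. It fell in BM 1D against FH (-4.35 ± 0.62, adjusted p = 0.000307), and BM 3W against FH did not pass (-0.75 ± 0.53, adjusted p = 0.237). It had 23.6 and 9.91 CPM in LBDXL 3W, 2.92 and 4.83 CPM in BM 3W Yap-/- and 6.69 and 7.92 CPM in FH Yap-/-. The low values of both Yap-/- groups did not overlap those of their controls. In BM 3W Yap-/- against BM 3W it fell (-1.88 ± 0.55, adjusted p = 0.0251), a call lost without BM 3W Yap-/- 1 (adjusted p = 0.142), BM 3W Yap-/- 2 (0.0704) or BM 3W 2 (0.183). In FH Yap-/- against FH the log2 fold change was -1.72 ± 0.55 and did not pass (adjusted p = 0.272).

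Col11a1, a type XI chain best known from cartilage, was nearly silent outside BM 3W and its Yap-/- counterpart. FH held 1 count of it in all, BM 3D 1 count, and BM 3W 16405 counts. It had 285 and 242 CPM in BM 3W, 13.3 and 9.51 CPM in BM 3W Yap-/- and 0.317 and 0.181 CPM in LBDXL 3W. The ratio of BM 3W to FH was 6612, with an exact 95% counting interval of 1187 to 261200. Col11a1 fell in LBDXL 3W (-9.99 ± 0.52, adjusted p = 1.5e-06) and in BM 3W Yap-/- (-4.53 ± 0.37, adjusted p = 8.45e-05) against BM 3W, and it was lower in LBDXL 3W than in BM 3W Yap-/- (-5.46 ± 0.48, adjusted p = 0.000174). Col27a1, a fibrillar collagen of cartilage, was present in every group: it had 29.5 and 25.6 CPM in FH, 12.9 and 18.5 in BM 1D, 3.97 and 11.6 in BM 3D and 37.8 and 50.7 in BM 3W, and it fell in BM 3D against FH (-1.83 ± 0.40, adjusted p = 0.00423) and rose in BM 3W against BM 3D (2.51 ± 0.40, adjusted p = 0.00164). BM 3W against FH did not pass (0.68 ± 0.38, adjusted p = 0.146). It was highest in FH Yap-/- (80.6 and 77.03 CPM), above both FH libraries, yet that difference did not pass over all genes (1.52 ± 0.39, adjusted p = 0.129). Col27a1 fell in BM 3W Yap-/- against BM 3W (-1.51 ± 0.39, adjusted p = 0.0143), a call lost without BM 3W Yap-/- 1 (adjusted p = 0.0792), BM 3W Yap-/- 2 (0.0753) or BM 3W 2 (0.0828). The Yap-/- effect in culture and in fresh cells thus pointed in opposite directions, with an interaction of -3.03 ± 0.55 (adjusted p = 0.00593).

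Of the 11 fibrillar genes, 10 were tested: 7 rose in BM 3W against FH (all genes 33%), 7 fell in LBDXL 3W against BM 3W (23.7%), and 8 fell in BM 3W Yap-/- against BM 3W (16.6%). Col24a1, a minor fibrillar collagen, was at 0 counts in FH and had 54 and 32 counts in BM 3W, at least 5.90-fold higher.

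Type IV collagen is the network-forming collagen of basement membranes, and most of it is built from 2 Col4a1 chains and 1 Col4a2 chain. Col4a1 (chr8:11198423-11312889) had 26.1 and 25.01 CPM in FH, 115 and 153 in BM 1D, 237 and 242 in BM 3D and 1659 and 1600.0 in BM 3W. Unlike type I, it was already well above FH on the first day, and the 2 libraries of each time lay close together. At 3 weeks it had 133 and 40.6 CPM in LBDXL 3W and 409.7 and 327 CPM in BM 3W Yap-/-, against 1659 and 1600.0 CPM in BM 3W. Col4a2 (chr8:11312805-11449287) had 26.96 and 26.04 CPM in FH, 62.8 and 70.1 in BM 1D, 142 and 119 in BM 3D and 1026 and 944 in BM 3W. It had 66.9 and 23.1 CPM in LBDXL 3W and 240.2 and 190.0 CPM in BM 3W Yap-/-. BM 3W Yap-/- cells thus kept far more type IV than type I message relative to BM 3W.

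Both genes start from 1 shared region of chromosome 8, and their windows are shown for that reason. They are transcribed away from each other, their start sites lie 21 bases apart and the windows share 78 bases, read on opposite strands. Col4a1 lies at chr8:11312777-11313076, minus strand, and Col4a2 at chr8:11312555-11312854, plus strand. Capitals mark the same motifs as above.
Col4a1: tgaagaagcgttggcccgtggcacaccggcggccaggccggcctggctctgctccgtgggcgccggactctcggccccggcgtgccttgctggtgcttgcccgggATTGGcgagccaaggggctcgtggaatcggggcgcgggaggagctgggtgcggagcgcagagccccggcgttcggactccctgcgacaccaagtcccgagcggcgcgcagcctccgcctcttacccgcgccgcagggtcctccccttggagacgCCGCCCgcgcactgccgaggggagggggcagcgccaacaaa
Col4a2: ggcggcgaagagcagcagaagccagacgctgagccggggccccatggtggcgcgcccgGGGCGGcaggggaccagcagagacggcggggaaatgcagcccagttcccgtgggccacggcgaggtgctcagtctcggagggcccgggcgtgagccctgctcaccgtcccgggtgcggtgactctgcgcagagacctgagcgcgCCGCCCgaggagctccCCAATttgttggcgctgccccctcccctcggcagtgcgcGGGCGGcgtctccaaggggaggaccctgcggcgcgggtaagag
Both windows held GC boxes and a CCAAT match, and neither held a match to the TATA, TEAD or AP-1 letters. The annotated genes overlap at their starts. The strand setting of the counting was not found in the labels, so reads from the overlap could have been counted for either.

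Col4a1 rose in BM 1D (2.39 ± 0.45, adjusted p = 0.0016), BM 3D (3.23 ± 0.46, adjusted p = 0.000417) and BM 3W (6.00 ± 0.52, adjusted p = 1.09e-05) against FH, and Col4a2 did so as well (1.33 ± 0.39, 2.30 ± 0.40 and 5.22 ± 0.46). The rise of Col4a2 at 1 day was lost without FH 1 (adjusted p = 0.0883), FH 2 (0.1) or BM 1D 2 (0.0629). The falls in LBDXL 3W against BM 3W were -4.23 ± 0.48 for Col4a1 and -4.45 ± 0.44 for Col4a2. In BM 3W Yap-/- against BM 3W they were -2.15 ± 0.44 and -2.19 ± 0.40, and that of Col4a1 had an adjusted p of 0.0541 without BM 3W Yap-/- 2. LBDXL 3W was below BM 3W Yap-/- for both chains (-2.09 ± 0.44, adjusted p = 0.0209 for Col4a1 and -2.26 ± 0.40, adjusted p = 0.00951 for Col4a2). Both of these calls were lost when the 2 groups were fitted alone. Col4a1 also missed the threshold without BM 3W Yap-/- 1 (log2 fold change -1.90) or BM 3W Yap-/- 2 (-2.24). Against FH, Col4a1 rose in LBDXL 3W (1.76 ± 0.44, adjusted p = 0.0162). This rise was lost on the compared groups alone and without LBDXL 3W 1 (log2 fold change 0.67), FH 1 (1.79) or FH 2 (1.75).

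The 1 collagen called between the genotypes in fresh cells was a type IV chain. Col4a2 had 5.52 and 6.399 CPM in FH Yap-/- against 26.96 and 26.04 CPM in FH, and Col4a1 had 7.87 and 8.16 CPM in FH Yap-/- against 26.1 and 25.01 CPM in FH. The groups did not overlap for either gene, nor for other collagens, among them Col1a1, Col5a3, Col25a1 and Col27a1, which did not pass. The share of all genes without overlap was not counted, so this does not show a change particular to collagens. Col4a2 fell (-2.15 ± 0.41, adjusted p = 0.0356) and was the 1 collagen called in this comparison, while Col4a1 did not pass (-1.67 ± 0.44, adjusted p = 0.146). On total counts, and in limma on log2(FPKM + 1) with or without its filter, the Col4a2 fall did not pass. More collagens were called when the compared groups were fitted alone, as given below. The Col4a2 call was lost in 8 of the 14 fits that left out 1 library, those without either FH Yap-/-, FH, BM 3W Yap-/- or BM 3W library, with adjusted p of 0.0503 to 0.397. For neither chain did the Yap-/- effect differ between culture and fresh cells past the threshold, with interactions of -0.47 ± 0.61 (adjusted p = 0.646) and -0.04 ± 0.57 (adjusted p = 1).

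The other type IV chains form separate networks, Col4a3, Col4a4 and Col4a5 in the kidney filter and Col4a5 and Col4a6 in smooth muscle. Col4a5 had 4.37 and 6.33 CPM in FH, 1.13 and 2.66 in BM 1D, 8.43 and 14.4 in BM 3D and 178 and 193 in BM 3W. It had 8.404 and 5.196 CPM in LBDXL 3W and 17.98 and 16.9 CPM in BM 3W Yap-/-, a pattern like that of type I. It rose in BM 3W against FH (5.12 ± 0.43, adjusted p = 9.32e-06) and fell in LBDXL 3W (-4.77 ± 0.42, adjusted p = 2.57e-05) and BM 3W Yap-/- (-3.41 ± 0.39, adjusted p = 0.000342) against BM 3W. Col4a6, which starts 1343 bases from Col4a5 on the opposite strand of chromosome X, had 0 counts in FH, BM 1D and BM 3D and 27.6 and 29.3 CPM in BM 3W. With a floor of 3 counts per library, it was at least 119.5-fold higher in BM 3W than in FH. It had 1 count in LBDXL 3W against 1783 in BM 3W, a ratio of BM 3W to LBDXL 3W of 1011 (exact 95% counting interval 181 to 39960), and 0.292 and 0.302 CPM in BM 3W Yap-/-. Col4a3 did the reverse. It had 16.8 and 14.1 CPM in FH, 0.135 and 0.0521 in BM 1D, 0.324 and 0 in BM 3D and 0.171 and 0.0599 in BM 3W, and it fell in all 3 BM groups and in LBDXL 3W against FH (-5.09 ± 0.96, adjusted p = 0.00411 in LBDXL 3W, at 0.529 and 0.362 CPM). Its opposite neighbour Col4a4 had 1.43 and 2.77 CPM in FH and fell in BM 3W as well (-4.17 ± 1.14, adjusted p = 0.0104), a call lost without FH 2 (0.0673), BM 3W 1 (0.081) or BM 3W 2 (0.0507). Reads of these overlapping genes could likewise be counted for either.

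Col18a1 (chr10:77052178-77166530), whose C-terminal fragment is endostatin, was the leading collagen of fresh hepatocytes. It had 1402 and 1421 CPM in FH, 162 and 401 in BM 1D, 385 and 818 in BM 3D and 271 and 208 in BM 3W. At 3 weeks it had 1059.8 and 1498 CPM in LBDXL 3W and 850.0 and 881 CPM in BM 3W Yap-/-, so both groups lay above BM 3W without overlap and LBDXL 3W was in the range of FH. It fell in BM 1D (-2.33 ± 0.47, adjusted p = 0.00266) and BM 3W (-2.56 ± 0.48, adjusted p = 0.000975) against FH, while BM 3D did not pass (-1.23 ± 0.46, adjusted p = 0.0521). It rose in LBDXL 3W against BM 3W (2.42 ± 0.48, adjusted p = 0.00235), the 1 collagen that did, and in BM 3W Yap-/- against BM 3W (1.85 ± 0.47, adjusted p = 0.0131). The last call was lost without BM 3W Yap-/- 2 (adjusted p = 0.0587) or BM 3W 2 (0.0795). LBDXL 3W against FH did not pass (-0.14 ± 0.45, adjusted p = 0.87), nor did FH Yap-/- against FH (-0.02 ± 0.45, adjusted p = 1). The gene-level counts do not tell its transcripts apart. RefSeq gives 2 start windows. The upstream one (chr10:77166481-77166780, minus strand) held CCAAT and GC box matches and no GGAATG. The downstream one is shown for its pair of GGAATG matches, 104 and 54 bases before the start. It lies at chr10:77113656-77113955, minus strand, and capitals mark GGAATG on either strand.
Col18a1 downstream start: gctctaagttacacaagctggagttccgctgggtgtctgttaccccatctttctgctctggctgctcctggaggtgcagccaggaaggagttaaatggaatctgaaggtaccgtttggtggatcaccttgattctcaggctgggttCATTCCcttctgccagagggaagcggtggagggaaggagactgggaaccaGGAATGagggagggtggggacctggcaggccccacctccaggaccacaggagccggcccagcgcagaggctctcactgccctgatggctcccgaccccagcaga
Its relative among basement membrane collagens, Col15a1, had 6.44 and 4.67 CPM in FH, 30.7 and 28.9 in BM 1D, 2.71 and 7.04 in BM 3D and 76.5 and 20.8 in BM 3W. It rose in BM 3W against FH (3.13 ± 0.80, adjusted p = 0.00642), lost without FH 2 (adjusted p = 0.0544) or BM 3W 1 (1.90, adjusted p = 0.0717), and it was low in LBDXL 3W (3.96 and 0.483 CPM) and BM 3W Yap-/- (1.701 and 1.26 CPM). Over the 8 basement membrane genes, 5 rose and 3 fell in BM 3W against FH (all genes 33% and 26.1%). Against BM 3W, 1 rose and 5 fell in LBDXL 3W (all genes 21.1% and 23.7%), and 1 rose and 5 fell in BM 3W Yap-/- (15% and 16.6%).

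FACIT collagens coat fibrils and link them to other matrix. Col12a1 had 2.23 and 2.14 CPM in FH, 82.9 and 317 in BM 1D, 47.6 and 167 in BM 3D and 630.2 and 822 in BM 3W. It rose at 1 day (6.51 ± 1.00, adjusted p = 0.000477) and 3 days (5.62 ± 0.96, adjusted p = 0.00114) as well as at 3 weeks (8.37 ± 1.07, adjusted p = 8.69e-05) against FH, with wide gaps between the libraries of BM 1D and BM 3D. At 3 weeks it had 17.1 and 3.38 CPM in LBDXL 3W and 21.04 and 11.3 CPM in BM 3W Yap-/-, and it fell in both against BM 3W (-6.14 ± 0.95, adjusted p = 0.000626 and -5.49 ± 0.92, adjusted p = 0.00197). Col14a1 came late. It had 18.4 and 13.1 CPM in FH, 2.17 and 5.99 in BM 1D, 6.85 and 21.2 in BM 3D and 853 and 399.7 in BM 3W. The fall at 1 day (-1.96 ± 0.60, adjusted p = 0.0225) was lost on total counts and in all 3 limma fits. It was also lost without FH 1 (log2 fold change -1.69) or BM 1D 1 (-1.40). Col14a1 stayed above FH in LBDXL 3W (69.8 and 42.4 CPM) and BM 3W Yap-/- (52.6 and 42.2 CPM). Its rise in LBDXL 3W against FH (1.83 ± 0.58, adjusted p = 0.0458) was lost in 7 of 14 fits without 1 library, those without LBDXL 3W 1 and without either FH, FH Yap-/- or BM 3W Yap-/- library (0.0638 to 0.241). Col16a1 had 0.875 and 0.475 CPM in FH, 0 and 0.625 in BM 1D, 0.77 and 2.66 in BM 3D and 48.4 and 79.4 in BM 3W, with 3.54 and 2.296 CPM in LBDXL 3W and 3.35 and 5.48 CPM in BM 3W Yap-/-. It rose in BM 3W against FH (6.55 ± 0.93, adjusted p = 0.000165). Of the 6 FACIT genes tested, 3 rose in BM 3W against FH (all genes 33%), and 4 fell in LBDXL 3W (23.7%) and 3 in BM 3W Yap-/- (16.6%) against BM 3W.

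Type VI collagen forms beaded filaments around cells from a1, a2 and a3 chains. Col6a1 had 1.19 and 0.712 CPM in FH, 0.632 and 7.81 in BM 1D, 5.06 and 36.1 in BM 3D and 270.5 and 179 in BM 3W. Col6a2, its neighbour on chromosome 10, had 0.795 and 1.19 CPM in FH, 0.406 and 6.196 in BM 1D, 2.19 and 28.1 in BM 3D and 173 and 135 in BM 3W. These 2 chains moved together within groups, and LBDXL 3W split widely: Col6a1 had 45.8 and 6.95 CPM and Col6a2 21.9 and 2.17 CPM there. In BM 3W Yap-/- the pairs were close, at 16.3 and 14.5 CPM for Col6a1 and 6.51 and 6.54 CPM for Col6a2. Col6a3 had 1.51 and 1.27 CPM in FH, 1.94 and 4.01 in BM 1D, 2.39 and 18.9 in BM 3D and 877 and 506 in BM 3W. It had 2.85 and 3.02 CPM in LBDXL 3W and 5.78 and 3.42 CPM in BM 3W Yap-/-, without the split seen for the other chains.

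All 3 type VI genes rose in BM 3W against FH, by 7.87 ± 1.44, 7.27 ± 1.59 and 8.95 ± 0.97 on the log2 scale. Col6a3 fell in LBDXL 3W against BM 3W (-7.88 ± 0.91, adjusted p = 0.000121), as did Col6a1 (-3.09 ± 1.09, adjusted p = 0.0385) and Col6a2 (-3.67 ± 1.27, adjusted p = 0.0364). The calls of Col6a1 and Col6a2 in LBDXL 3W were each lost in 9 of 14 fits without 1 library, those without LBDXL 3W 2 and without either BM 3W, BM 3W Yap-/-, FH or FH Yap-/- library, at adjusted p of 0.0522 to 0.171 for Col6a1 and 0.0501 to 0.152 for Col6a2. In BM 3W Yap-/- against BM 3W, Col6a3 fell (-7.23 ± 0.88, adjusted p = 0.00042), and so did Col6a1 (-3.87 ± 1.13, adjusted p = 0.0248) and Col6a2 (-4.56 ± 1.33, adjusted p = 0.0251). Without 1 of the 4 libraries compared, Col6a1 (0.0517 to 0.145) and Col6a2 (0.0574 to 0.144) no longer passed. Against FH, Col6a1 rose in LBDXL 3W (4.79 ± 1.32, adjusted p = 0.026). This call was lost without LBDXL 3W 1 (log2 fold change 2.86), FH 1 (5.20) or FH 2 (4.48). It was also lost on the compared groups alone and in limma on log2(FPKM + 1), filtered or not. Summed endothelial markers also split LBDXL 3W, at 204 CPM in library 1 and 9.79 CPM in library 2, and their part in the Col6a1 and Col6a2 values was not tested.

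Col8a1 encodes a chain of the short, network-forming type VIII collagen of vessel walls. It was nearly absent early, with 0.0795 and 0 CPM in FH, 0.0451 and 0 in BM 1D and 0.446 and 0.0985 in BM 3D, and it had 175 and 219 CPM in BM 3W. The ratio of BM 3W to FH rests on 12419 counts against 1 and was 5006 (exact 95% counting interval 898 to 197700). It had 0 and 1.03 CPM in LBDXL 3W and 8.21 and 6.74 CPM in BM 3W Yap-/-, and fell in both against BM 3W (-8.63 ± 0.88, adjusted p = 5.96e-05 and -4.72 ± 0.69, adjusted p = 0.00102). Col8a1 was also lower in LBDXL 3W than in BM 3W Yap-/- (-3.91 ± 0.79, adjusted p = 0.0176). This call was lost when the 2 groups were fitted alone. It was also lost without BM 3W Yap-/- 1 (log2 fold change -3.74) or BM 3W Yap-/- 2 (-4.05).

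The 13 tested members with all group means under 10 CPM moved in both directions. Col6a5, a chain that can stand in for Col6a3, was at 0 counts in FH and had 10.4 and 5.93 CPM in BM 3W, at least 34.2-fold higher. It had 2 counts in LBDXL 3W and 0 in BM 3W Yap-/-, against 500 in BM 3W, which makes it at least 54.9-fold lower in BM 3W Yap-/-. Col28a1 was at 0 counts in FH and had 4.77 and 0.868 CPM in BM 3W, at least 11.8-fold higher. Col25a1 and Col13a1, both transmembrane collagens, fell in BM 3W against FH. Col25a1 had 3.58 and 3.72 CPM in FH and 0 counts in all BM groups without Yap-/- and in LBDXL 3W, at least 37.9-fold lower in BM 3W and at least 21.5-fold lower in LBDXL 3W. In FH Yap-/- it had 0.69 and 0.48 CPM, below both FH libraries, but this did not pass (-2.62 ± 0.79, adjusted p = 0.312), and its rise in BM 3W Yap-/- against BM 3W rests on 7 counts against 0, at least 1.81-fold, and was lost without any 1 library of BM 3W Yap-/-, BM 3W, FH Yap-/- or FH (0.0506 to 0.152). Col13a1 held 1 count in BM 3W against 43 in FH. Col7a1, the collagen of anchoring fibrils, was highest in BM 1D (2.62 and 4.999 CPM, against 0.557 and 0.475 CPM in FH), and it fell in BM 3D against BM 1D (-2.92 ± 0.71, adjusted p = 0.0398). That fall was lost in 10 of 14 fits without 1 library, those without either library of BM 1D, BM 3D, BM 3W, FH or BM 3W Yap-/- (0.0506 to 0.151). Col11a2 and Col9a3 rose in BM 1D against FH, and Col22a1 fell in LBDXL 3W against BM 3W, all of them at levels of a few CPM or less. These calls were lost without FH 2 for Col11a2 (adjusted p = 0.114), without FH 1 (0.0578), FH 2 (0.144) or BM 1D 2 (0.0749) for Col9a3, and without LBDXL 3W 1 (0.0777), LBDXL 3W 2 (0.137) or BM 3W 2 (0.109) for Col22a1. Col6a6, Col20a1 and Col23a1 passed in none of these comparisons.

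The 9 members that did not pass the filter were Col2a1, Col6a4, Col8a2, Col9a1, Col9a2, Col10a1, Col17a1, Col19a1 and Col26a1. Col9a1 had no count in any library. The highest group mean among the 9 was 1.26 CPM, for Col9a2 in LBDXL 3W, and it came from LBDXL 3W 2 (0.106 and 2.42 CPM).

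At 3 weeks the sizes of the 2 sets of differences from BM 3W can be read side by side, with the shared BM 3W libraries in mind. For the 22 members above 10 CPM the plot of log2 fold changes shows both. LBDXL 3W and BM 3W Yap-/- differed from each other, past the threshold, in 6 members. Besides Col11a1, Col4a1, Col4a2 and Col8a1 above, Col5a2 was lower in LBDXL 3W (-2.15 ± 0.56, adjusted p = 0.0437) and Col5a3 was higher (2.11 ± 0.55, adjusted p = 0.0454). On total counts and in all 3 limma fits the Col5a3 call was lost. Both calls were lost on the compared groups alone, as were those of Col4a1, Col4a2 and Col8a1. Of the 6 calls, 1 (Col11a1) passed under every alternative. Col5a2 lost its call in 11 of 14 fits without 1 library, all but those without LBDXL 3W 1 or either BM 3D library (0.0511 to 0.17), and Col5a3 lost it in 7, those without LBDXL 3W 1 and without either BM 3W Yap-/-, FH Yap-/- or FH library (0.0719 to 0.19). For the type I and III genes LBDXL 3W was lower in each case but did not pass, at -2.05 ± 0.64 for Col1a1 (adjusted p = 0.0798), -1.20 ± 0.56 for Col1a2 (adjusted p = 0.223) and -1.57 ± 0.65 for Col3a1 (adjusted p = 0.172). An adjusted p above the threshold does not show that these levels were equal.

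**Figure D4:**
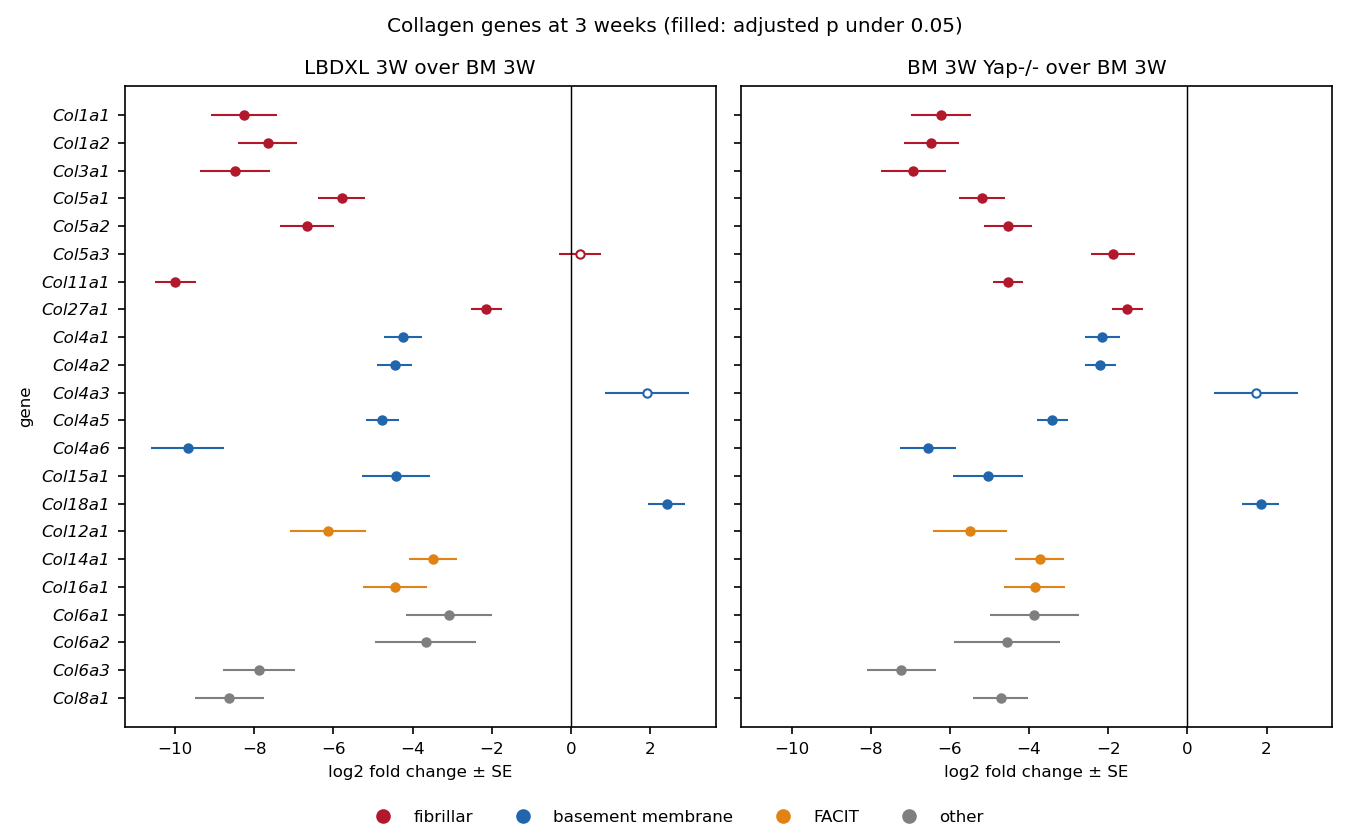
Log2 fold changes with standard errors for the 22 collagens above 10 CPM in LBDXL 3W over BM 3W and in BM 3W Yap-/- over BM 3W. Filled points passed an adjusted p of 0.05. Most points lie left of 0 in both comparisons, and Col18a1 lies right of 0 in both, at 2.42 and 1.85.

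LBDXL 3W cells also differed from fresh hepatocytes in a few members. The 6 that rose were Col1a1, Col1a2, Col5a1, Col4a1, Col14a1 and Col6a1, described above, and the 4 that fell were Col4a3, Col13a1, Col25a1 and Col27a1. Col27a1 had 10.1 and 9.97 CPM in LBDXL 3W against 29.5 and 25.6 CPM in FH (-1.45 ± 0.39, adjusted p = 0.0241). This fall was lost on total counts and in all 3 limma fits. It was also lost without LBDXL 3W 1 (log2 fold change -1.46), LBDXL 3W 2 (-1.44), FH 1 (-1.35) or FH 2 (-1.54). The fall of Col13a1 was lost without any 1 library of LBDXL 3W, FH or FH Yap-/- (0.0576 to 0.15).

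The effect of Yap-/- in culture differed from that in fresh hepatocytes for most fibrillar members. Interactions, the log2 difference of BM 3W Yap-/- from BM 3W less that of FH Yap-/- from FH, were -8.13 ± 1.06 for Col1a1, -6.29 ± 0.88 for Col1a2, -6.63 ± 0.99 for Col3a1, -5.03 ± 0.82 for Col5a1 and -5.74 ± 0.82 for Col5a2, all called. Outside the fibrillar class, Col6a3 (-6.87 ± 1.22, adjusted p = 0.00543), Col12a1 (-6.47 ± 1.24, adjusted p = 0.00743) and Col15a1 (-5.74 ± 1.15, adjusted p = 0.00913) showed the same. In fresh cells Col1a1 had 2.62 and 2.48 CPM in FH Yap-/- against 0.477 and 0.871 CPM in FH, and Col3a1 had 5.31 and 5.36 CPM in FH Yap-/- against 7.63 and 5.46 CPM in FH. Neither difference passed. The loss of Yap1 was also unequal, at 23.1 and 26.5 CPM left in FH Yap-/- and 6.66 and 7.75 CPM in BM 3W Yap-/-. Its part in the interactions was not tested.

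Chains that build 1 protein were compared within a library, on FPKM and on counts per kilobase of exon. The ratio of Col4a1 to Col4a2, whose protein takes 2 to 1, was 0.732 and 0.730 in FH on FPKM and 1.13 and 0.986 in FH Yap-/-, and it ran from 1.21 to 1.73 in the 10 cultured libraries. FH was thus the lowest group on this ratio, and counts per kilobase put it at 0.858 and 0.852, again lowest. The ratio of Col6a3 to Col6a1 was 1.32 and 1.10 in BM 3W and ran from 0.0245 to 0.206 in the other 7 libraries with at least 20 counts of both genes. Col6a3 and Col6a1 were therefore near parity only in BM 3W among these 9 libraries. The ratio of Col6a1 to Col6a2 showed no such pattern: it was 2.27 and 1.90 in BM 3W, within the 1.795 to 5.46 of all 9. For Col1a1 to Col1a2, also a 2 to 1 protein, the median was 0.793 on FPKM and 1.72 on counts per kilobase over 10 libraries, so the order of these 2 chains depends on the length used. No test was run on these ratios.

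**Figure D5:**
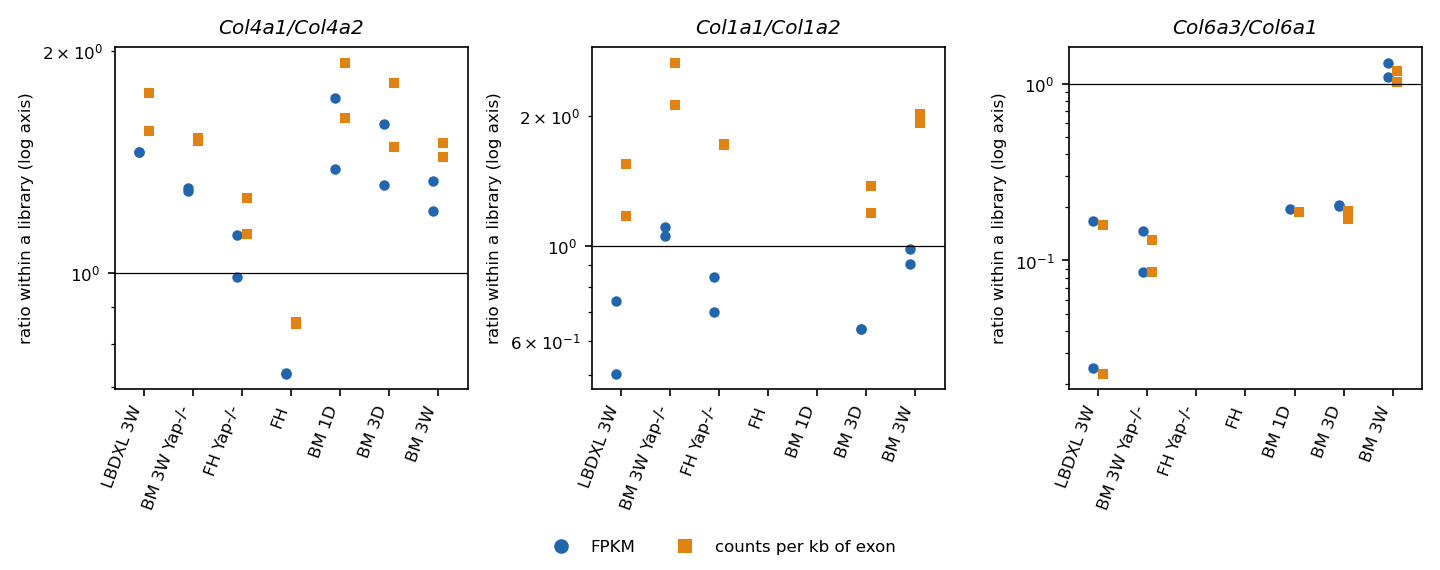
Ratios of Col4a1 to Col4a2, Col1a1 to Col1a2 and Col6a3 to Col6a1 in each library, from FPKM and from counts per kilobase of exon, leaving out libraries with under 20 counts of either gene. FH is lowest for Col4a1 to Col4a2 (0.732 and 0.730 on FPKM) and BM 3W highest for Col6a3 to Col6a1 (1.32 and 1.10).

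Collagen chains need a set of enzymes and chaperones before they can leave the cell. Of 19 genes for chain modification and folding, 14 rose and 4 fell in BM 3W against FH (median log2 fold change 2.09, against 0.17 over all genes, of which 33% rose and 26.1% fell). In LBDXL 3W against BM 3W, 2 rose and 12 fell (all genes 21.1% and 23.7%, median -1.42 against -0.02), and in BM 3W Yap-/- against BM 3W, 3 rose and 9 fell (all genes 15% and 16.6%, median -1.08 against -0.03). Of the 4 most abundant members, 3 fell in BM 3W against FH and 1 rose. P4hb, the beta subunit of prolyl 4-hydroxylase and also a general disulfide isomerase, had 1263 and 2225 CPM in LBDXL 3W and 1748 and 2018 CPM in BM 3W Yap-/-, against 682 and 633 CPM in BM 3W, and it fell in BM 3W against FH (-1.52 ± 0.36, adjusted p = 0.00385). Mia3, which helps load large cargo such as procollagen into transport carriers, fell in BM 3W against FH (-2.21 ± 0.32, adjusted p = 0.000205), and so did Ppib, a prolyl isomerase (-0.99 ± 0.33, adjusted p = 0.0247). Colgalt1, which adds galactose to hydroxylysine, rose (1.16 ± 0.28, adjusted p = 0.00468).

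The 12 tested genes of 13 for procollagen cleavage and crosslinking all rose in BM 3W against FH (median 6.77, or 6.56 with genes at 0 at their bound, where 33% of all genes rose). Against BM 3W, 11 of them fell in LBDXL 3W and 7 in BM 3W Yap-/-, where 23.7% and 16.6% of all genes fell. Lox, the lysyl oxidase that crosslinks fibrils, had 0.0795 and 0.158 CPM in FH, 90.4 and 60.6 in BM 1D, 30.6 and 49.3 in BM 3D and 318 and 434 in BM 3W. At 3 weeks it had 9.14 and 0.785 CPM in LBDXL 3W and 14.3 and 11.5 CPM in BM 3W Yap-/-. It was thus up on the first day, before Col1a1 and Col3a1. Adamts2, which cuts the amino-terminal propeptide, had 228 and 196 CPM in BM 3W against 1.03 and 0.475 CPM in FH, and Loxl2, a related oxidase, 341 and 435 CPM in BM 3W against 0.318 and 1.11 CPM in FH. Bmp1, the carboxy-terminal propeptide protease, rose less (1.01 ± 0.32, adjusted p = 0.0196) and did not pass in BM 3W Yap-/- against BM 3W (-0.52 ± 0.32, adjusted p = 0.231).

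Of 8 collagen receptors, 7 rose in BM 3W against FH (all genes 33%), and 7 fell in LBDXL 3W (23.7%) and 7 in BM 3W Yap-/- (16.6%) against BM 3W. Itgb1, the shared beta subunit of the collagen-binding integrins, rose in BM 3W against FH (1.23 ± 0.30, adjusted p = 0.00497). Its partner Itga1 had 40.9 and 46.1 CPM in FH, 3.93 and 4.999 in BM 1D, 13.3 and 20.6 in BM 3D and 286 and 123 in BM 3W, a dip and then a rise (2.23 ± 0.41, adjusted p = 0.000883 at 3 weeks). The collagen-activated kinase Ddr1 had 68.3 and 136 CPM in BM 3W against 0.477 and 0.317 CPM in FH, and the collagen uptake receptor Mrc2 had 66.7 and 71.6 CPM in BM 3W against 0.318 and 0.0791 CPM in FH. Of 10 proteins that bind to or organise fibrils, 8 rose in BM 3W against FH, and 8 fell in LBDXL 3W and 8 in BM 3W Yap-/- against BM 3W, beside the same shares of all genes. Sparc, a collagen-binding matricellular protein, had 88.6 and 21.9 CPM in LBDXL 3W and 191 and 173 CPM in BM 3W Yap-/-, against 1635 and 2091 CPM in BM 3W. The small proteoglycans Bgn (5.69 ± 0.53, adjusted p = 1.48e-05) and Dcn (4.10 ± 0.50, adjusted p = 6.31e-05) rose in BM 3W against FH, whereas Fn1, fibronectin, did not pass (0.59 ± 0.64, adjusted p = 0.451).

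Marker genes of other liver cells moved in the same libraries. Summed hepatocyte markers, with 10 of 10 detected in every library, were 32460 and 3372 CPM in BM 3W against 223600 and 220700 CPM in FH. They were 207200 and 162000 CPM in LBDXL 3W and 112700 and 96980 CPM in BM 3W Yap-/-. The 14 stellate cell markers summed to 1636 and 1198 CPM in BM 3W against 533 and 523 CPM in FH, and the 13 fibroblast markers, which include Dcn and Lum, to 2428 and 1703 CPM in BM 3W against 67.0 and 60.2 CPM in FH. All 14 stellate markers and at least 12 of the fibroblast markers were detected in each BM 3W library. In LBDXL 3W the stellate sum was 497 and 317 CPM and the fibroblast sum 432 and 215 CPM, and in BM 3W Yap-/- they were 274 and 244 CPM and 365 and 338 CPM. These sums were thus highest in BM 3W, where collagens were. The 10 Kupffer cell markers summed to 2815 and 3633 CPM in BM 3W against 132 and 90.7 CPM in FH, led by Lyz2, with Timd4 at 0 counts in BM 3W 2. They were 5.81 and 4.95 CPM in LBDXL 3W, with Clec4f and Timd4 at 0 in both libraries, and 348 and 390.3 CPM in BM 3W Yap-/-. The 10 cholangiocyte markers summed to 4544 and 5272 CPM in BM 3W, mostly Spp1, against 47.9 and 44.2 CPM in FH. The 12 endothelial markers summed to 161 and 230.0 CPM in BM 3W against 136 and 111 CPM in FH. Of these 12, however, 1 rose and 7 fell in BM 3W against FH (all genes 33% and 26.1%), with a median log2 fold change of -2.79 against 0.17 over all genes. In the same comparison, 10 stellate markers rose and 1 fell, and 8 Kupffer cell markers rose and 2 fell. Of 10 fibroblast markers tested 9 rose and 0 fell, all 8 cholangiocyte markers tested rose, and all 10 hepatocyte markers fell. The part of any of these cell types in the collagen values was not tested.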

How the data were processed

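The authors deposited 1 table of raw counts per gene and 1 of FPKM for 14 libraries. Per the labels, total RNA was extracted with an RNeasy kit and made into TruSeq Stranded mRNA paired-end libraries. The submitters' processing notes name HTSeq, HISAT2, DESeq, Cufflinks and Trimmomatic and the GRCm38.p6 build. Versions, settings and the use of strand in counting are not given in the sources used here. Depth ran from 15501005 to 21220365 counts. Symbols of 27 genes altered by a spreadsheet were restored from NCBI gene IDs.

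Counts were fitted with edgeR 4.0.16 in R 4.3.3 after filterByExpr on group (14100 genes) and TMM scaling (factors 0.648 to 1.69), all 14 libraries in 1 model, with quasi-likelihood F-tests and Benjamini-Hochberg adjustment over 14100 genes. Standard errors are the absolute log2 fold change divided by the root of F. FPKM served only for levels between genes, and 18 of 616 collagen values had a count of at most 8 with FPKM at 0. A gene at 0 was placed at 3 counts per library for a bound. Bounds and exact 95% intervals for ratios to 1 to 3 counts cover counting error only. Collagens that averaged 10 CPM or more in some group, and their partner chains, could be named in full, and of other lists the 4 most abundant genes. Members, lists and comparisons were chosen with earlier results of these data known. Coordinates and promoter windows came from RefSeq on GRCm38.p6, and 163 of 164 list genes were matched. The fit was tested on simulated counts.

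Alternatives were DESeq2 size factors, total counts, the DESeq2 1.42.0 Wald test, no filter, the compared groups alone, a replicate block, limma 3.58.1 on log2(FPKM + 1), filtered at an average FPKM of 0.5 or unfiltered, and on log2(FPKM + 0.1) with that filter, each library left out, and LBDXL 3W 1 and BM 3W 2 left out together. Python 3.11.15 with pandas 2.3.3 and matplotlib 3.10.9 was used for tables and figures.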

Additional observations from a re-analysis of the deposited data

Results flagged for a closer look

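For 16 collagens the effect of Yap-/- in 3-week culture differed from its effect in fresh hepatocytes by the interaction term of the edgeR model. The interaction is the log2 difference of BM 3W Yap-/- from BM 3W less that of FH Yap-/- from FH, and a negative value means a lower level in Yap-/- cells in culture than the fresh cells would give. Yap1 was less reduced in FH Yap-/- than in BM 3W Yap-/-, as given above.

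Among the fibril-forming collagens it was -8.13 for Col1a1, -6.29 for Col1a2, -6.63 for Col3a1, -5.03 for Col5a1, -5.74 for Col5a2, -6.84 for Col11a1 and -3.03 for Col27a1. Among basement membrane collagens it was -3.39 for Col4a5, -5.74 for Col15a1 and -10.24 for Col4a6. Among fibril-associated collagens it was -6.47 for Col12a1, -3.71 for Col14a1 and -3.98 for Col16a1. In the other types it was -6.87 for Col6a3 and -7.24 for Col8a1, and Col25a1 had the 1 positive value, 7.46.

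Several of these values rest on groups at or near 0 counts and depend on the prior count of the fit. Col4a6 had 0 counts in FH, Col11a1 and Col8a1 had 1 count in FH, and Col25a1 had 0 counts in BM 3W. Col1a1 held 6 and 11 counts and Col16a1 11 and 6 counts in the FH libraries. At such levels a fall in fresh cells could hardly be seen. For 6 genes the call was lost when 1 library was left out. Col11a1 lost it without FH Yap-/- 1 (-5.44, adjusted p = 0.147), and Col14a1 without BM 3W Yap-/- 2 (0.0603), FH Yap-/- 2 (0.0536) or FH 2 (0.0648). Col16a1 lost it without any 1 of the 8 libraries compared (0.0696 to 0.172), as did Col8a1 (0.0506 to 0.243). Col4a6 lost it without BM 3W Yap-/- 2 (0.0592), FH Yap-/- 2 (-6.55, adjusted p = 1), FH 1 (0.0541), FH 2 (0.058) or BM 3W 2 (0.0556). Col25a1 lost it without any 1 of the 8 libraries compared except BM 3W Yap-/- 1 (0.0572 to 0.0915).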

How the results depend on the processing

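Of 3965 recomputed values for the 168 calls of tested collagens, 3636 kept direction and side of the threshold, 329 lost their call and 0 reversed. These values include fits without a library outside the comparison. Counted by call, 104 of the 168 were kept under every alternative that tested them. This held for 24 of 27 calls in BM 3W against FH and 19 of 23 in LBDXL 3W against BM 3W. It held for 2 of 10 in LBDXL 3W against FH, 1 of 6 in LBDXL 3W against BM 3W Yap-/- and 0 of 7 in BM 3D against BM 1D. The counts of collagens called moved by over 1.5 times as follows. In BM 1D against FH, 16 became 7 with limma on log2(FPKM + 1) and 7 with log2(FPKM + 0.1), both filtered. In BM 3D against FH, 17 became 11 with limma on filtered log2(FPKM + 1). For LBDXL 3W against FH, 10 became 2 with that fit, 6 without its filter and 6 without LBDXL 3W 1 and BM 3W 2. In BM 3D against BM 1D, 7 became 11 with DESeq2, 11 without those 2 libraries and 0 on the compared groups alone, where edgeR put 11 of 23 at an unadjusted p under 0.05 (lowest adjusted p 0.117). LBDXL 3W against BM 3W Yap-/- gave 2 in place of 6 on the compared groups alone. In FH Yap-/- against FH, 1 became 3 with DESeq2, 3 with limma without a filter, 11 on the compared groups alone, 2 without those 2 libraries and 0 on total counts (7 of 35 at an unadjusted p under 0.05 in edgeR). In the interaction, 16 became 26 with limma without a filter. For these counts, and for those below with 1 library left out, the share of all genes called was not set beside them. They therefore do not tell a change of the collagens from a change of the whole fit. The cause was not tested.

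Leaving out 1 library at a time gave 9 to 17 calls in BM 1D against FH, 10 to 19 in BM 3D against FH, 24 to 28 in BM 3W against FH, 2 to 13 in LBDXL 3W against FH and 2 to 11 in BM 3D against BM 1D. It gave 17 to 24 in BM 3W against BM 3D, 20 to 23 in LBDXL 3W against BM 3W, 16 to 24 in BM 3W Yap-/- against BM 3W, 2 to 9 in LBDXL 3W against BM 3W Yap-/-, 0 to 2 in FH Yap-/- against FH and 11 to 18 in the interaction. The lowest counts against FH came without FH 1 (9 in BM 1D, 2 in LBDXL 3W) or FH 2 (10 in BM 3D). BM 3D against BM 1D fell to 2 without BM 1D 1, and LBDXL 3W against BM 3W Yap-/- to 2 without either BM 3W Yap-/- library.

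Library numbers were not taken to pair the samples. Over 21 pairs of groups, the deviations of same-numbered libraries correlated at -0.02 to 0.46. With the number as a replicate block, counts of calls were 17 in BM 1D against FH and 10 in LBDXL 3W against FH, and the block changed no count by over 1.5 times. With it, 3 calls had an adjusted p just over 0.05: Col5a2 in LBDXL 3W against BM 3W Yap-/- (0.0515), Col14a1 in LBDXL 3W against FH (0.0523) and Col25a1 in BM 3W Yap-/- against BM 3W (0.0504).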
